A study of Drosophila melanogaster with 24 samples.

Results

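Amyrel, Amy-d and Amy-p are 3 of the 15682 genes in the count tables of this series, and they were taken by name as the amylase family of Drosophila melanogaster. Each is described in all 24 libraries, whatever its level. Amy-d and Amy-p, the distal and proximal amylase genes, encode near-identical secreted alpha-amylases that cut starch and glycogen into maltose and short dextrins. Amyrel is a diverged relative of the same fold, for which transfer of glucose units between short glucose chains has been described in flies. In adult flies amylase is best known as a digestive enzyme of the midgut, its genes are repressed by dietary sugar, and maltases take its products on to glucose.

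All flies were males 10 days old. In the thorax groups the muscle driver Mhc expressed an RNAi transgene, with genotypes labelled Mhc>ProsB1RNAi, Mhc>ProsB5RNAi, Mhc>Ter94RNAi and Mhc>CG6272RNAi and the controls Mhc>whiteRNAi and Mhc>GFPRNAi. ProsB1 and ProsB5 (genes Prosbeta1 and Prosbeta5) cut proteins inside the proteasome. Ter94 (gene TER94, the fly p97) unfolds tagged proteins ahead of it, and CG6272 encodes a transcription factor of the bZIP class. The head groups, enriched from brains and retinas per the labels, carried Mhc>Amyrel, which overexpresses Amyrel in muscle, or Mhc>+, an isogenic control without the transgene. The titles of the control heads also carry the name Amyrel, and their genotype labels were followed. Each of the 8 groups held 3 libraries that the labels call biological replicates, and nothing names the cultures or flies behind them, so p-values measure the spread between these libraries. Each knockdown was represented by 1 RNAi genotype.

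Reads assigned to genes numbered 28.9 to 79.2 M in the thorax libraries, and 47.5 to 75.7 M in those of heads. Prosbeta1 fell by 0.93 ± 0.11 on the log2 scale in ProsB1 RNAi thoraces, Prosbeta5 by 1.05 ± 0.06 in ProsB5 RNAi, TER94 by 0.61 ± 0.06 in Ter94 RNAi and CG6272 by 0.94 ± 0.07 in CG6272 RNAi (± SE). White (w) had 1.67 to 1.89 CPM in white RNAi thoraces and 1.51 to 1.56 CPM in GFP RNAi thoraces, where CPM stands for the reads of a gene per 1 M reads in genes, and was not called different (adjusted p = 0.529). Ter94 RNAi thoraces had 70.5 to 79.9 CPM of w, higher than controls by 5.55 ± 0.10 (adjusted p = 1.78e-12). In ProsB5 RNAi w was lower by 0.57 ± 0.13 (adjusted p = 0.00531). It was not called in ProsB1 or CG6272 RNAi (adjusted p = 0.111 and 0.491). Amyrel heads had 22.2 to 23.5 CPM and control heads 9.19 to 10.3 CPM, a rise of 1.22 ± 0.06 (adjusted p = 0.000191). The source of these differences in w was not tested. Some libraries stood apart in RNA of other organs. Of the 6 control thoraces, 3 were above 100 CPM of the photoreceptor opsin ninaE (GFP RNAi replicates 2 and 3, white RNAi replicate 1). In 4 thoraces the accessory gland gene Acp36DE was above 5 CPM (ProsB5 RNAi replicate 1, white RNAi replicates 1 and 2, GFP RNAi replicate 1). In CG6272 RNAi replicate 2 the 5 neuron markers summed to 294 CPM, against 623 to 947 CPM in the other 17 thoraces. Muscle markers summed to 17169 to 23358 CPM in the knockdown thoraces and 21223 to 28429 CPM in the control thoraces.

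Amyrel was close to absent from control thoraces and was found in every library of every knockdown. ProsB1 RNAi thoraces had 23.7, 6.35 and 20.2 CPM of Amyrel. ProsB5 RNAi thoraces had 36.4, 15.7 and 15.4 CPM. Ter94 RNAi thoraces had 11.2, 7.98 and 8.85 CPM. These 9 libraries lay above all others of the thorax, and ProsB5 RNAi replicate 1 was the highest. CG6272 RNAi thoraces had 5.28, 3.15 and 2.81 CPM. White RNAi thoraces had 0.0961, 0.167 and 0.0991 CPM, and GFP RNAi thoraces 0.189, 0.0331 and 0 CPM. GFP RNAi replicate 3 had no read of Amyrel, which at its depth allows up to 0.0969 CPM. The 6 controls together held 18 Amyrel reads in 191.7 M, or 0.0939 per M reads with an exact 95% Poisson interval of 0.0556 to 0.148 that covers counting error only. No knockdown library overlapped a control library.

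**Figure D1:**
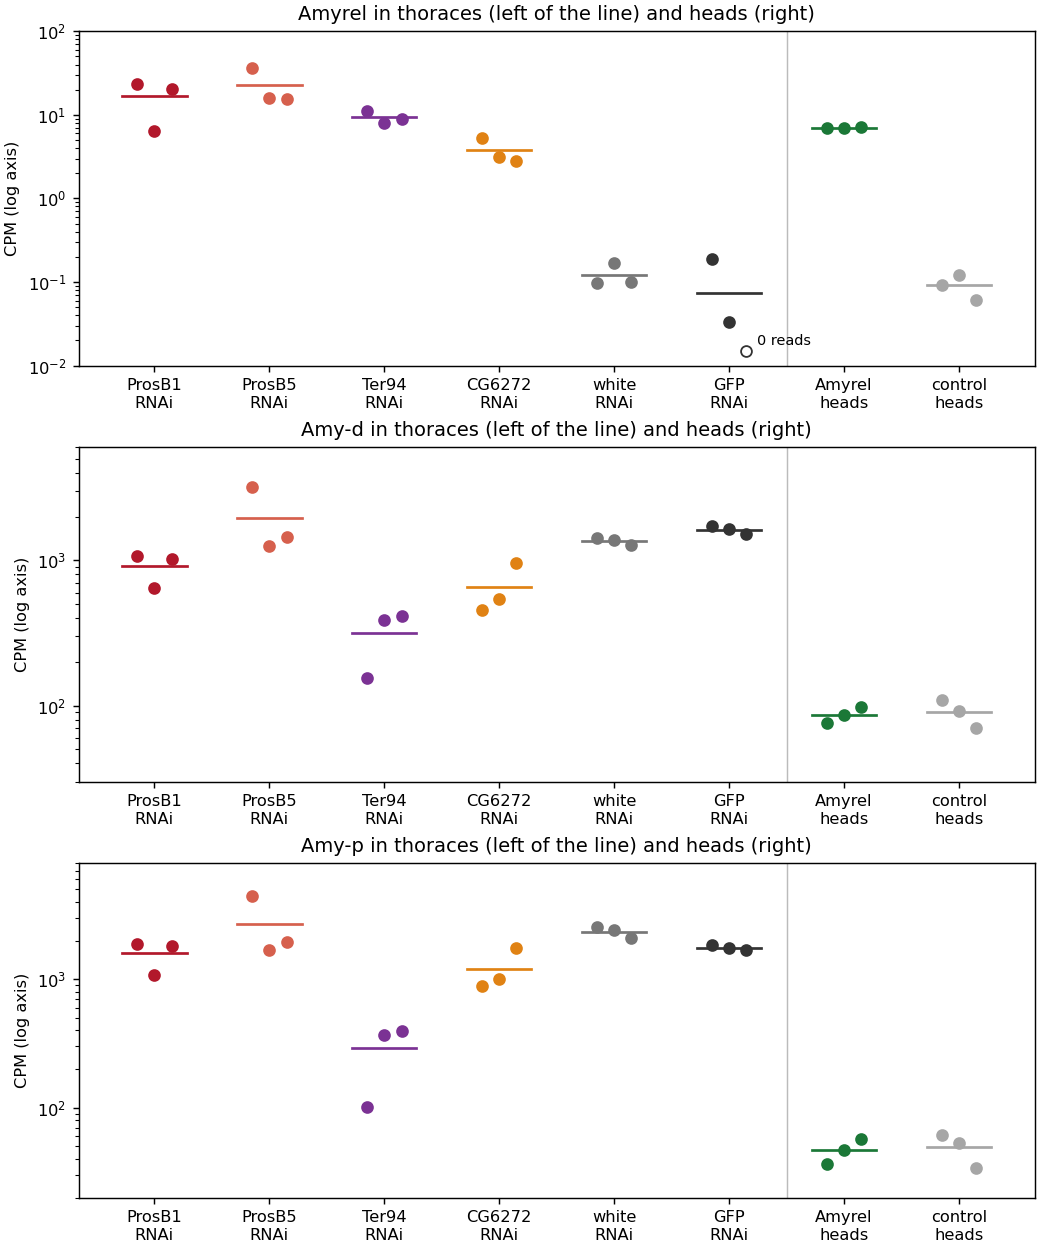
Amyrel, Amy-d and Amy-p in each library, in CPM on log axes, with a horizontal line at each group's mean of 3 libraries; the open circle marks the GFP RNAi library with 0 Amyrel reads. Amyrel lies at 2.81 to 36.4 CPM in the knockdown thoraces and at 0 to 0.189 CPM in the controls, while both amylases reach their lowest thorax levels in Ter94 RNAi.

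Against the 6 controls, Amyrel rose by 7.40 ± 0.57 on the log2 scale in ProsB1 RNAi (± SE, adjusted p = 5.11e-06) and by 7.83 ± 0.57 in ProsB5 RNAi (adjusted p = 2.32e-06). It rose by 6.55 ± 0.59 in Ter94 RNAi (adjusted p = 1.45e-06) and by 5.25 ± 0.51 in CG6272 RNAi (adjusted p = 0.000461). The share of all tested genes called higher was 11.6% in ProsB1 RNAi, 17.3% in ProsB5 RNAi, 29.7% in Ter94 RNAi and 13.3% in CG6272 RNAi, where called means an adjusted p under 0.05. All 4 comparisons share the same 6 controls. CG6272 RNAi libraries have titles of another form than the other thoraces, so a library batch and the knockdown cannot be told apart there. Because so few control reads stand behind the folds, GFP RNAi replicate 1, with 6 of the 18 reads, moves them. Without it they were 8.38 in ProsB1 RNAi, 8.79 in ProsB5 RNAi, 7.54 in Ter94 RNAi and 6.25 in CG6272 RNAi. Without the libraries high in Acp36DE they were 8.52, 8.40, 7.67 and 6.39 in the same order, and without the controls high in ninaE 6.71, 7.13, 5.86 and 4.56, with every call kept in both. Without CG6272 RNAi replicate 2 the CG6272 value was 5.36 (adjusted p = 0.00145).

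In order of mean level Amyrel ran from ProsB5 RNAi (22.5 ± 12.0 CPM, SD, n = 3) through ProsB1 RNAi (16.8 ± 9.18 CPM), Ter94 RNAi (9.35 ± 1.68 CPM), CG6272 RNAi (3.75 ± 1.34 CPM) and white RNAi (0.121 ± 0.0398 CPM) to GFP RNAi (0.0741 ± 0.101 CPM). Libraries of neighbours overlapped between ProsB5 and ProsB1, between ProsB1 and Ter94 and between white and GFP RNAi, and they did not overlap between Ter94 and CG6272 or between CG6272 and white RNAi. Amyrel in ProsB5 RNAi exceeded that in ProsB1 RNAi by 0.43 ± 0.44 (adjusted p = 0.692), and the difference turned to -0.12 without ProsB5 RNAi replicate 1. White RNAi exceeded GFP RNAi by 0.62 ± 1.58 (adjusted p = 0.859). The amylases were not called in these 2 comparisons either, where 5.97% and 12.9% of all genes were.

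Amyrel lies across the gene gprs, which the reference annotation places on the opposite strand. The strand setting of the counts is not given in the sources used here, so reads in the shared stretch may have been assigned to either. In the knockdown thoraces gprs had 13.3 to 32.7 CPM, the lowest being CG6272 RNAi replicate 2, against 21.0 to 26.4 CPM in controls. It rose in Ter94 RNAi by 0.38 ± 0.09 (adjusted p = 0.00225, and 0.0864 with the 18 thoraces in 1 fit) and was not called in the other knockdowns, with differences of 0.03 ± 0.09 in ProsB1 RNAi, -0.04 ± 0.09 in ProsB5 RNAi and -0.03 ± 0.21 in CG6272 RNAi.

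Neither amylase was called higher in any knockdown. Both fell in Ter94 RNAi thoraces, both fell less far in CG6272 RNAi thoraces, and neither was called in the proteasome knockdowns. Per kilobase of exon, Amyrel reached 14.5 ± 7.78 CPM per kb in ProsB5 RNAi, and the controls had 0.0628 ± 0.0473 CPM per kb. Reads without a unique alignment were counted for no gene, so levels of the near-identical amylases may be too low beside Amyrel. Amy-p had 1622 ± 921 CPM per kb in ProsB5 RNAi and 1232 ± 213 CPM per kb in the controls, and Amy-d had 1225 ± 661 and 928 ± 105 CPM per kb (SD, n = 3 and 6).

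Amy-d had 1071, 642 and 1015 CPM in ProsB1 RNAi thoraces. It had 3188, 1262 and 1451 CPM in ProsB5 RNAi, 155, 387 and 412 CPM in Ter94 RNAi, and 458, 544 and 961 CPM in CG6272 RNAi thoraces. White RNAi thoraces had 1424, 1370 and 1265 CPM and GFP RNAi thoraces 1712, 1645 and 1522 CPM. All Ter94, CG6272 and ProsB1 RNAi libraries lay below the controls, and ProsB5 RNAi libraries lay on both sides of them.

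Amy-p had 1881, 1076 and 1821 CPM in ProsB1 RNAi thoraces. It had 4473, 1683 and 1961 CPM in ProsB5 RNAi, 101, 370 and 399 CPM in Ter94 RNAi, and 881, 996 and 1738 CPM in CG6272 RNAi thoraces. White RNAi thoraces had 2540, 2413 and 2082 CPM and GFP RNAi thoraces 1848, 1760 and 1685 CPM. Only Ter94 RNAi stood wholly below the controls, and ProsB5 RNAi replicate 1 stood far above every other library for both amylases.

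In Ter94 RNAi, where 28.4% of all tested genes were called lower, Amy-d fell by 2.22 ± 0.36 (adjusted p = 0.000198) and Amy-p fell by 2.80 ± 0.45 (adjusted p = 0.000177). In CG6272 RNAi, where 9.53% were called lower, Amy-d fell by 1.18 ± 0.21 (adjusted p = 0.00754) and Amy-p fell by 0.75 ± 0.20 (adjusted p = 0.0314). The CG6272 falls depend on the libraries used. Without the controls high in ninaE the adjusted p was 0.108 for Amy-d and 0.204 for Amy-p, and without the libraries high in Acp36DE it was 0.135 and 0.282. The Amy-p call was also lost with GFP RNAi alone as control (adjusted p = 0.116) and on leaving out any 1 library other than CG6272 RNAi replicate 3. In ProsB1 RNAi, where 9.73% of all genes were called lower, Amy-d differed by -0.70 ± 0.33 (adjusted p = 0.165) and Amy-p by -0.34 ± 0.39 (adjusted p = 0.591). In ProsB5 RNAi, with 13.8% called lower, the differences were 0.42 ± 0.32 for Amy-d (adjusted p = 0.365) and 0.42 ± 0.38 for Amy-p (adjusted p = 0.459), and they were -0.13 and -0.16 without ProsB5 RNAi replicate 1.

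**Figure D2:**
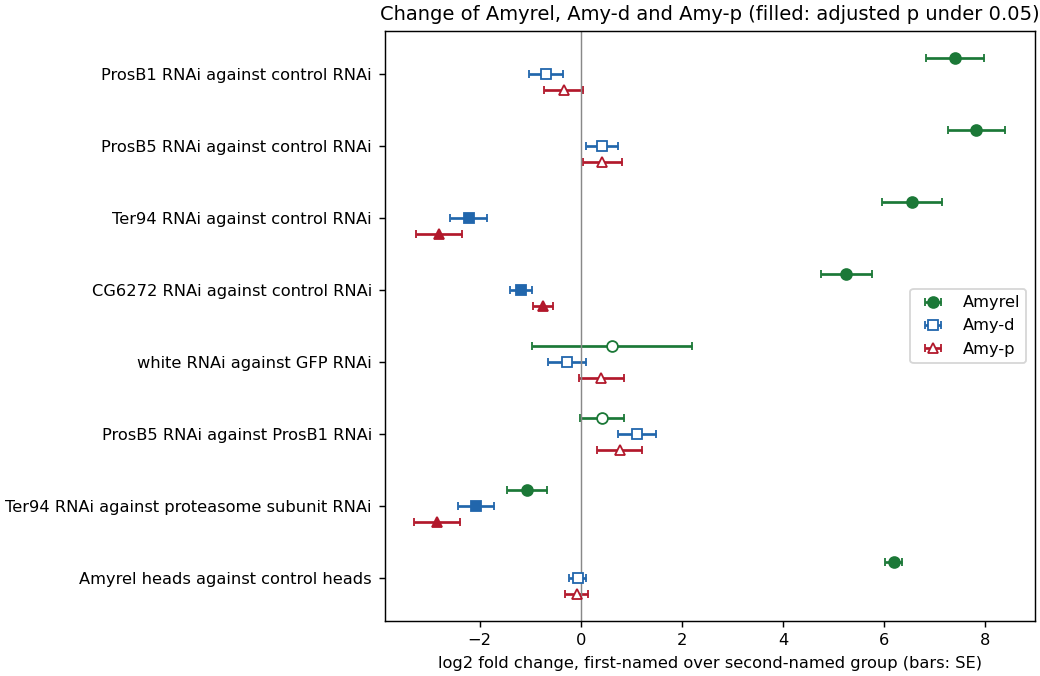
Log2 fold change of Amyrel, Amy-d and Amy-p in each of the 8 comparisons, first-named over second-named group, with bars for the SE; filled symbols passed an adjusted p under 0.05 and open ones did not. Amyrel is filled and above 5 in the 4 knockdowns and in Amyrel heads, while Amy-d and Amy-p are filled and below 0 in Ter94 and CG6272 RNAi.

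Because Amy-d and Amy-p are near-identical copies, the split of RNA between them is uncertain, and the sum was also fitted as 1 row. Reads without a unique alignment were counted for neither gene, so the sum does not restore them. The summed amylases fell by 2.54 ± 0.40 in Ter94 RNAi (adjusted p = 0.000165) and by 0.93 ± 0.21 in CG6272 RNAi (adjusted p = 0.0169). They differed by -0.49 ± 0.36 in ProsB1 RNAi (adjusted p = 0.377) and by 0.41 ± 0.35 in ProsB5 RNAi (adjusted p = 0.424). Over the 18 thoraces Amy-d and Amy-p moved together, with a Pearson r of 0.947 on log2(CPM + 1) and 0.986 on deviations from group means. For Amyrel the r was -0.22 with Amy-d and -0.19 with Amy-p, and on deviations from group means it was 0.337 and 0.291, of the opposite sign. Libraries of 1 group share a genotype, so these values are descriptions.

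Ter94 RNAi was also set directly against the mean of the ProsB1 and ProsB5 groups, a comparison in which 29.6% of all genes were called lower. Amy-d was lower in Ter94 RNAi by 2.08 ± 0.36 on the log2 scale (log2 fold change -2.08, adjusted p = 0.000321) and Amy-p by 2.85 ± 0.45 (log2 fold change -2.85, adjusted p = 0.000168). Amyrel was lower by 1.06 ± 0.40 (log2 fold change -1.06, adjusted p = 0.0378). The Amyrel call was lost on leaving out any 1 of the Ter94 RNAi libraries, ProsB1 RNAi replicate 1 or 3, or ProsB5 RNAi replicate 1, with adjusted p from 0.0601 to 0.13.

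Set against the amylases, Amyrel took up a larger part of the family's reads in each knockdown. Per 1000 reads of Amy-d plus Amy-p there were 8.03, 3.70 and 7.12 Amyrel reads in ProsB1 RNAi, 4.75, 5.33 and 4.51 in ProsB5 RNAi, and 43.9, 10.5 and 10.9 in Ter94 RNAi. CG6272 RNAi had 3.95, 2.05 and 1.04. White RNAi thoraces had 0.0242, 0.0440 and 0.0296 and GFP RNAi thoraces 0.0531, 0.00973 and 0. No knockdown library overlapped a control library. Gene length cancels in this comparison. The amylase reads are only those with a unique alignment, so the ratios themselves may be too high. The log2 ratio, with 0.5 counts added to each side, exceeded the controls by 7.93 in ProsB1 RNAi, 7.63 in ProsB5 RNAi, 9.46 in Ter94 RNAi and 6.38 in CG6272 RNAi. In each comparison the two-sided exact permutation p was 0.0238, the smallest that 3 libraries against 6 allow, and 0.0238 after adjustment over the 4. With 1 knockdown library left out no p below 0.0714 is possible. The high ratio of Ter94 RNAi replicate 1 goes with the lowest amylase level of any thorax.

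**Figure D3:**
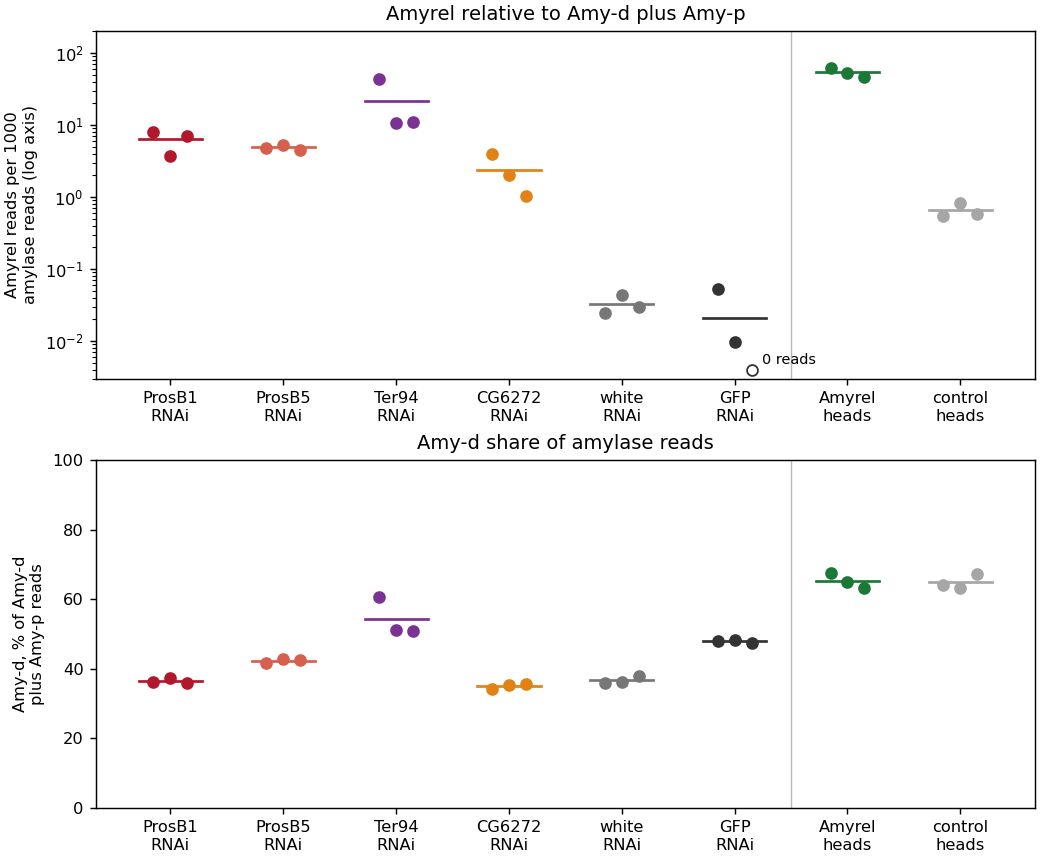
Upper panel, Amyrel reads per 1000 reads of Amy-d plus Amy-p in each library on a log axis; lower panel, Amy-d as a percentage of Amy-d plus Amy-p reads; lines are means of 3 libraries. The ratio is 1.04 to 43.9 in knockdown thoraces and at most 0.0531 in control thoraces, and the Amy-d share differs between the white and GFP RNAi controls.

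The thorax holds the foregut and the front of the midgut as well as muscle. A list of 31 gut marker genes, most of them for digestive enzymes, was read beside the amylases. Their summed level was 6975 to 10648 CPM in ProsB1 RNAi, 6645 to 12457 CPM in ProsB5 RNAi, 631 to 2317 CPM in Ter94 RNAi and 4928 to 10220 CPM in CG6272 RNAi, against 8948 to 11457 CPM in the controls. The trypsin alphaTry, the most abundant of them, had 43.0, 541 and 583 CPM in Ter94 RNAi and 2582 to 2842 CPM in controls, and fell by 2.80 ± 0.60 (adjusted p = 0.00147). The trypsin betaTry fell by 2.76 ± 0.91 (adjusted p = 0.02, and 0.067 without the controls high in ninaE) and the Jonah serine proteases Jon65Aiii and Jon65Aiv fell by 2.48 ± 0.68 and 2.25 ± 0.63 (adjusted p = 0.00739 and 0.00871). These 4, named for their high levels, were not called in ProsB1, ProsB5 or CG6272 RNAi. Fewer gut cells in the sample and less RNA per gut cell cannot be told apart in such bulk libraries.

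The list as a whole split. In ProsB1 RNAi 14 of 30 tested gut markers rose and 7 fell, where 11.6% of all genes were called higher and 9.73% lower. In ProsB5 RNAi 15 rose and 6 fell, against 17.3% and 13.8% of all genes. In Ter94 RNAi 10 rose and 19 fell, against 29.7% and 28.4%, so the share of rises was near that of all genes. In CG6272 RNAi 13 of 29 rose and 9 fell, against 13.3% and 9.53%. Markers near 0 in the controls, described below, may have passed the count filter through knockdown libraries alone. Such markers can hardly be called lower, which favours rises in these counts and higher medians of the list. The median of the list was 0.32 in ProsB1 RNAi, 0.54 in ProsB5 RNAi, -2.62 in Ter94 RNAi and 0.19 in CG6272 RNAi, where the medians of all genes lay between -0.0021 and 0.0206. Amylase reads per gut marker read were 0.246 to 0.318 in ProsB1 RNAi, 0.429 to 0.615 in ProsB5 RNAi, 0.345 to 0.405 in Ter94 RNAi and 0.229 to 0.272 in CG6272 RNAi, against 0.291 to 0.42 in the controls. The part of gut RNA in the amylase falls was not tested beyond these values.

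Some gut markers were, like Amyrel, near 0 in the controls. Of the 31, 12 had a median under 1 CPM in the controls, a split made after their values were seen and so given without a test. Those 12 summed to 400 to 1254 CPM in ProsB1 RNAi, 342 to 416 CPM in ProsB5 RNAi, 100 to 156 CPM in Ter94 RNAi and 261 to 511 CPM in CG6272 RNAi, against 0.86 to 50.3 CPM in the controls. The highest control, GFP RNAi replicate 1, had 6 Amyrel reads. White RNAi replicate 2 had 5 Amyrel reads and a sum of only 2.16 CPM for these markers. Picking genes that are low in controls favours levels above the controls elsewhere, and the share of all genes with such levels was not counted. Counted gene by gene, 6 of the 12 had all 12 knockdown libraries above every control, 2 had 11 and 2 had 9. The lysozyme gene LysS had none, with at most 0.284 CPM in any thorax, and LysX had 2, with at most 2.45 CPM. The Jonah gene Jon66Cii, with 11, reached no more than 0.677 CPM. The lipase mag, which breaks down dietary fat in the gut, was 1 of them, with 49.0 to 107 CPM in ProsB5 RNAi and 26.8 to 57.9 CPM in Ter94 RNAi. Its controls lay at 0.0333 to 0.172 CPM, except for 13.0 CPM in GFP RNAi replicate 1. The Jonah protease Jon25Biii had 129 to 490 CPM in ProsB1 RNAi and 74.3 to 147 CPM in ProsB5 RNAi. It had 29.9 to 51.7 CPM in Ter94 RNAi and 35.1 to 87.9 CPM in CG6272 RNAi. Its controls had 0 to 0.132 CPM, with 16.01 CPM in GFP RNAi replicate 1. The part of gut RNA in the rise of Amyrel was not tested beyond these values.

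**Figure D4:**
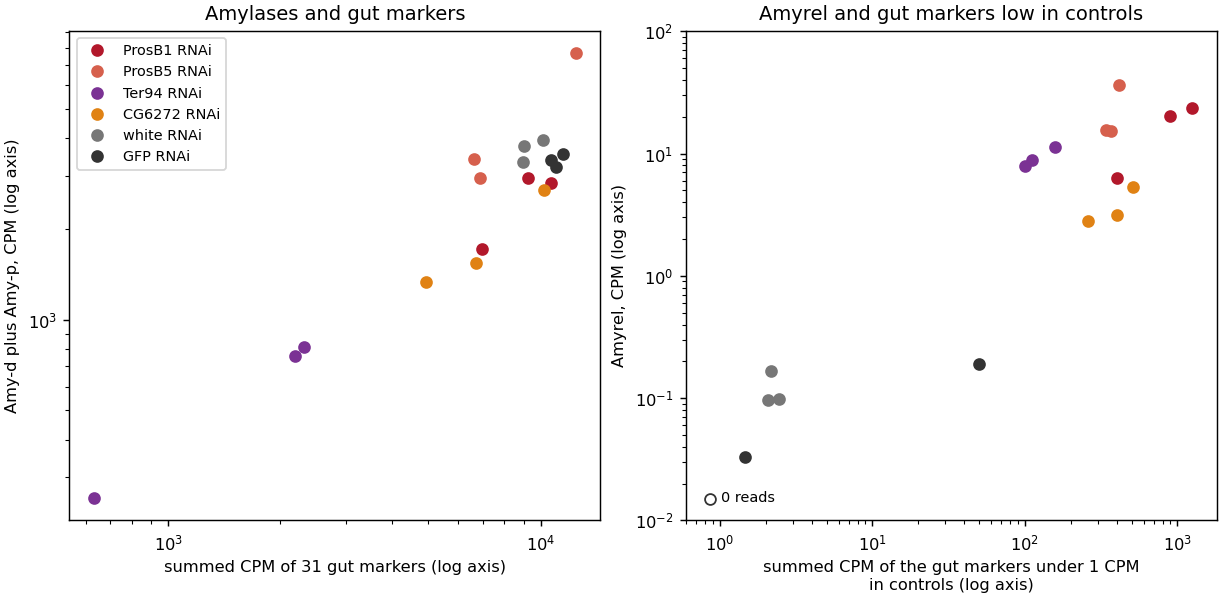
Left, summed CPM of 31 gut markers against Amy-d plus Amy-p in the 18 thoraces; right, summed CPM of the 12 gut markers under 1 CPM in controls against Amyrel, all on log axes, with 1 point per library and the open circle for the library with 0 Amyrel reads. On the left Ter94 RNAi lies lowest on both axes. On the right GFP RNAi replicate 1, at 50.3 CPM, lies between the other controls and the knockdowns along the marker axis only.

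Among 10186 genes with a mean of at least 1 CPM in a thorax group, those most like Amyrel over the 18 thoraces were CG17322 (Pearson r = 0.96), CG15533 (0.958), CG34386 (0.953), the cytochrome P450 gene Cyp4s3 (0.95) and Npc1b (0.942), whose product takes up sterols in the midgut. CG7381 (0.938), CG2772 (0.937), the glutamate transporter gene dmGlut (0.936), the maltase gene Mal-A3 (0.935) and CG31089 (0.935) followed. Within groups the r of these 10 with Amyrel ran from 0.31 for CG17322 to 0.894 for Cyp4s3. CG17322 had 42.4 to 53.1 CPM in ProsB1, ProsB5 and Ter94 RNAi thoraces and 25.4 to 31.4 CPM in controls, a much smaller range than that of Amyrel. Npc1b had 25.02 to 83.2 CPM in ProsB1 RNAi, 37.6 to 83.5 CPM in ProsB5 RNAi, 10.3 to 18.1 CPM in Ter94 RNAi and 12.8 to 31.8 CPM in CG6272 RNAi, and the controls had 0.641 to 5.58 CPM. Again the highest control was GFP RNAi replicate 1.

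The genes most like Amy-p were CG31104 (Pearson r = 0.978), the Jonah protease gene Jon99Ci (0.975), the serine protease gene Phae1 (0.973), CG13324 (0.968) and CG13323 (0.968), with within-group r of 0.931 to 0.968. Each of the 5 fell in Ter94 RNAi, by 2.50 ± 0.43 for CG13323 to 3.17 ± 0.52 for Jon99Ci (adjusted p = 0.000306 and 0.000219). They were picked for their likeness over these libraries, so their falls are descriptions. Jon99Ci had 10.7, 42.5 and 43.1 CPM in Ter94 RNAi and 230 to 352 CPM in controls, and it was highest in ProsB5 RNAi replicate 1 at 881 CPM.

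Enzymes and carriers that handle the sugars downstream of amylase moved in both directions. Of 26 tested genes for maltases, trehalose and sugar transport and glycogen, 8 rose and 7 fell in ProsB1 RNAi, 10 rose and 7 fell in ProsB5 RNAi, and 6 rose and 14 fell in Ter94 RNAi. In CG6272 RNAi 6 of 25 rose and 6 fell. Of all genes tested, 11.6% were called higher and 9.73% lower in ProsB1 RNAi, 17.3% and 13.8% in ProsB5 RNAi, 29.7% and 28.4% in Ter94 RNAi, and 13.3% and 9.53% in CG6272 RNAi, so the rises in Ter94 RNAi stand below the share of all genes. The medians of the list were -0.07 in ProsB1 RNAi, 0.08 in ProsB5 RNAi, -0.46 in Ter94 RNAi and -0.00017 in CG6272 RNAi. Of the 10 maltase genes named Mal-A or Mal-B, a group split off after the values were seen, 7 rose and 1 fell in ProsB1 RNAi, 8 rose and 1 fell in ProsB5 RNAi, 5 rose and 4 fell in Ter94 RNAi, and 6 rose and 1 fell in CG6272 RNAi. Mal-B1 had 422 to 510 CPM in ProsB1 RNAi, 873 to 984 CPM in ProsB5 RNAi, 282 to 291 CPM in Ter94 RNAi and 243 to 601 CPM in CG6272 RNAi. White RNAi thoraces had 220 to 279 CPM of Mal-B1 and GFP RNAi thoraces 103 to 146 CPM, so CG6272 RNAi overlapped the white controls. It rose by 1.47 ± 0.10, 2.47 ± 0.10, 0.73 ± 0.10 and 1.10 ± 0.27 in ProsB1, ProsB5, Ter94 and CG6272 RNAi (adjusted p = 2.25e-06, 2.46e-08, 5.69e-05 and 0.0228).

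The maltase Mal-A3, the only member of the sugar list among the 10 genes most like Amyrel, had 65.9 to 221 CPM in ProsB1 RNAi, 83.0 to 158 CPM in ProsB5 RNAi, 32.6 to 49.5 CPM in Ter94 RNAi and 26.5 to 88.8 CPM in CG6272 RNAi. Controls had 0.413 to 9.61 CPM, the highest being GFP RNAi replicate 1. Mal-B2 rose by 1.17 ± 0.10 in ProsB5 RNAi (adjusted p = 9.15e-06), 0.31 ± 0.10 in Ter94 RNAi (adjusted p = 0.0209) and 0.73 ± 0.08 in CG6272 RNAi (adjusted p = 0.000779), with 0.22 ± 0.10 in ProsB1 RNAi (adjusted p = 0.166). Maltase genes are a cluster of related copies, so reads that fit more than 1 copy may be missing from their counts.

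The maltase Mal-A5 was lower in each knockdown. It fell by 0.54 ± 0.05 in ProsB1 RNAi, 0.74 ± 0.05 in ProsB5 RNAi, 1.30 ± 0.06 in Ter94 RNAi and 0.45 ± 0.10 in CG6272 RNAi (adjusted p = 2.09e-05, 2.62e-06, 3.75e-09 and 0.017). Of 9 genes for hexokinases and glycogen turnover, also split off after the values were seen, none was called higher in any knockdown by edgeR, at an unadjusted p under 0.05 or by DESeq2. In ProsB1 RNAi 5 of them fell, in ProsB5 RNAi 5, in Ter94 RNAi 6 and in CG6272 RNAi 3. Of all genes, 9.73%, 13.8%, 28.4% and 9.53% were called lower by edgeR in that order, and 11.6%, 17.3%, 29.7% and 13.3% higher. The hexokinase gene Hex-A fell by 0.33 ± 0.05, 0.52 ± 0.05, 0.80 ± 0.06 and 0.64 ± 0.09 in the same order (adjusted p = 0.000856, 2.7e-05, 1.51e-07 and 0.00257). UGP, which makes UDP-glucose, had 535 to 542 CPM in Ter94 RNAi and 963 to 1483 CPM in controls, and fell by 1.07 ± 0.06 (adjusted p = 4.46e-08). It fell by 0.33 ± 0.06 in ProsB1 RNAi (adjusted p = 0.00206) and 0.25 ± 0.06 in ProsB5 RNAi (adjusted p = 0.00748), both lost with white RNAi alone as control (adjusted p = 0.314 and 0.8), and differed by -0.23 ± 0.13 in CG6272 RNAi (adjusted p = 0.199). The glycogen branching enzyme gene CG33138 fell by 0.44 ± 0.05 in Ter94 RNAi (adjusted p = 7.15e-06) and by 0.14 ± 0.05 in ProsB5 RNAi (adjusted p = 0.0403), with -0.08 ± 0.05 in ProsB1 RNAi (adjusted p = 0.285) and -0.01 ± 0.11 in CG6272 RNAi (adjusted p = 0.941). The controls differed between themselves here. White RNAi against GFP RNAi gave 0.99 ± 0.12 for Mal-B1, -0.79 ± 0.06 for Mal-A5 and -0.44 ± 0.07 for UGP (adjusted p = 0.000232, 7.04e-06 and 0.00148). With white RNAi alone as control, Mal-A5 was no longer called in ProsB1 RNAi (-0.15, adjusted p = 0.12) or CG6272 RNAi (-0.05, adjusted p = 0.751). The Mal-B1 call was lost in the same way in Ter94 RNAi (0.24, adjusted p = 0.117) and CG6272 RNAi (0.61, adjusted p = 0.204), and that of Mal-B2 in Ter94 RNAi (0.10, adjusted p = 0.51). Without the controls high in ninaE, none of Mal-A5, Mal-B1, Mal-B2 and Hex-A was called in CG6272 RNAi (adjusted p = 0.179, 0.231, 0.0571 and 0.0794). The CG33138 value in ProsB5 RNAi was -0.01 with white RNAi alone (adjusted p = 0.957).

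**Figure D5:**
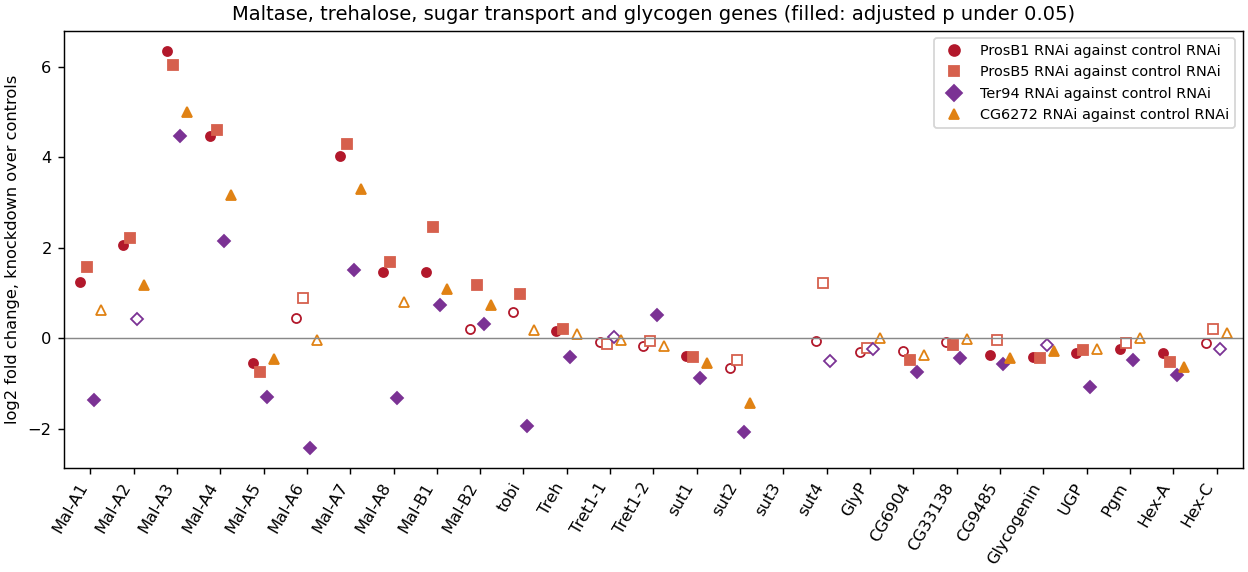
Log2 fold change of the sugar-handling genes in each knockdown over the controls; filled symbols passed an adjusted p under 0.05, open ones did not, and genes without a symbol were below the count filter. Mal-A3 lies between 4.48 and 6.35, the highest of the list in every knockdown, and Mal-A5 and Hex-A lie below 0 in all 4.

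Of the 10 genes listed as regulators of amylase expression, from sugar sensing and Activin signalling, some were called in both proteasome knockdowns and in Ter94 RNAi. In ProsB1 RNAi none rose and 4 fell, where 9.73% of all genes were called lower, and in ProsB5 RNAi none rose and 4 fell, where 13.8% were. In Ter94 RNAi 3 rose and 4 fell, beside 29.7% of all genes called higher and 28.4% lower, so the share of rises was near that of all genes. None was called in CG6272 RNAi by edgeR. At an unadjusted p under 0.05, 4 were lower in CG6272 RNAi and 1 was higher in ProsB5 RNAi, and DESeq2 called 2 lower in CG6272 RNAi. In CG6272 RNAi Mio, the sugar-sensing partner of bigmax, differed by -0.27 ± 0.12 (adjusted p = 0.115). The gene bigmax fell by 0.30 ± 0.06 in ProsB1 RNAi, 0.42 ± 0.06 in ProsB5 RNAi and 0.37 ± 0.06 in Ter94 RNAi (adjusted p = 0.0035, 0.000251 and 0.00023). Smox, a transcription factor downstream of Activin receptors, fell by 0.19 ± 0.04 in Ter94 RNAi (adjusted p = 0.00101), and put, a type II receptor, fell by 0.18 ± 0.04 there (adjusted p = 0.00123). With the 18 thoraces in 1 fit neither was called (adjusted p = 0.393 for Smox and 0.0741 for put). Chosen after their values were seen, the Activin ligand daw and the sugar-induced factor sug differed most among the 10. The gene daw fell by 0.61 ± 0.16 in ProsB1 RNAi and 0.68 ± 0.16 in ProsB5 RNAi and rose by 0.44 ± 0.15 in Ter94 RNAi (adjusted p = 0.0171, 0.00677 and 0.0261). For sug the falls were 1.01 ± 0.27 in ProsB1 RNAi and 1.14 ± 0.27 in ProsB5 RNAi (adjusted p = 0.0169 and 0.00654), with 0.20 ± 0.25 in Ter94 RNAi (adjusted p = 0.517). With GFP RNAi alone as control the falls of daw in ProsB1 RNAi (adjusted p = 0.0746) and of sug in ProsB1 and ProsB5 RNAi (adjusted p = 0.159 and 0.0758) were not called, nor was the rise of daw in Ter94 RNAi with white RNAi alone (adjusted p = 0.148). In ProsB1 RNAi daw was also not called without replicate 1 or 3 (adjusted p = 0.0552 and 0.0780), nor sug without replicate 1 or 2 (adjusted p = 0.0785 and 0.0629), nor daw in Ter94 RNAi without replicate 2 or 3 (adjusted p = 0.0722 and 0.0798) or without the controls high in ninaE (adjusted p = 0.136).

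In heads, Amyrel RNA itself marked the flies labelled as overexpressing Amyrel in muscle. Amyrel heads had 6.87, 6.99 and 7.25 CPM of Amyrel, and control heads had 0.0929, 0.121 and 0.0611 CPM. The groups did not overlap, and Amyrel rose by 6.19 ± 0.16 (adjusted p = 6.84e-06) where 0.791% of all genes were called higher. Reads of the transgene and of the endogenous gene cannot be told apart in these counts. Muscle markers were present in both groups, with sums of 3663 to 3956 CPM in Amyrel heads and 3550 to 3991 CPM in control heads. The Amyrel levels of Amyrel heads lie between those of the Ter94 and the CG6272 RNAi thoraces. The tissues were scaled apart and no test was made between them.

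The amylases did not change with it beyond the spread. Amy-d had 75.4, 86.6 and 98.0 CPM in Amyrel heads and 110, 91.9 and 69.9 CPM in control heads, a difference of -0.06 ± 0.16 (adjusted p = 0.903). Amy-p had 36.4, 47.0 and 57.4 CPM in Amyrel heads and 61.2, 53.5 and 34.1 CPM in control heads, a difference of -0.08 ± 0.23 (adjusted p = 0.911). Both amylases overlapped fully between the groups. Amyrel reads per 1000 amylase reads were 61.5, 52.3 and 46.7 in Amyrel heads, against 0.544, 0.835 and 0.587 in control heads. The log2 ratio differed by 6.23, with an exact two-sided permutation p of 0.1, the smallest that 3 against 3 allows. None of 22 tested sugar genes and none of the 10 regulators was called in heads by edgeR, where 1.51% of all genes were, and none by DESeq2. At an unadjusted p under 0.05, 2 of the sugar genes were higher and 1 of the regulators lower. Among the sugar genes Mal-B1 had 12.3 to 16.4 CPM in Amyrel heads and 9.08 to 11.2 CPM in control heads, a difference of 0.43 ± 0.12 (adjusted p = 0.171).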

How the data were processed

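RNA was sequenced from 18 thorax and 6 head libraries made with a stranded mRNA kit. The authors aligned reads with STAR to BDGP5, per the submitters' processing notes, and deposited raw read counts per gene symbol. The counting tool was not given in the sources used here, nor were its annotation and strand setting. The 5 closing summary rows of each file, with 19.4 to 31.2% of all reads for thoraces and 22.7 to 25.4% for heads, stayed out of library sizes. Among them is a row for reads without a unique alignment, with 6.30 to 13.2% of all reads. Such reads were counted for no gene. In R 4.3.3, edgeR 4.0.16 (with limma 3.58.1) removed low counts by filterByExpr (minimum 10, total 15), scaled by TMM and tested with the quasi-likelihood F test, adjusted by Benjamini-Hochberg over all genes tested. Each SE is the absolute log2 fold change divided by the root of F. These steps were tested on simulated data. The 15 ProsB1, ProsB5, Ter94, white and GFP RNAi libraries shared a fit, CG6272 RNAi was fitted with the 6 controls, and heads apart. CPM levels use TMM within the 18 thoraces or the 6 heads. Reads carry no molecular identifiers, so intervals cover counting error only.

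Replicate numbers pair libraries where every residual correlation passes 0.1, which held for ProsB5 against ProsB1 RNAi (0.147 to 0.463), for heads (0.155 to 0.239), and for ProsB1 (0.128 to 0.434) and ProsB5 RNAi (0.532 to 0.764) against GFP RNAi. It did not hold for those 2 against white RNAi (0.0555 to 0.490 and -0.455 to 0.702), and so not over the 6 controls. Nor did it hold for other comparisons, and the labels state no pairing. The main fits used no pairing, so the p-values printed for heads and for ProsB5 against ProsB1 RNAi are unpaired. Exon lengths come from annotation BDGP6, another build than that of the counts. It places all 3 genes on chromosome 2R, and no sequence or position is given. The genes and the 9 lists were chosen with earlier results of these data known. Genes are named by rule. The rule takes the 3 amylase genes and the targets, the 10 genes most like Amyrel and the 5 most like Amy-p. It also takes the 6 sugar genes and 3 regulators with the smallest adjusted p, and the 4 most abundant gut markers. Other genes, among them mag, Jon25Biii, Jon66Cii, LysS, LysX and Mio, are named outside this rule. Alternatives were DESeq2 1.42.0, RLE scaling, no filter, replicate number as a block, the amylases summed, each control alone, all 18 thoraces in a fit, each library left out, and, added after seeing the data, removal of libraries high in ninaE or Acp36DE.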

Additional observations from a re-analysis of the deposited data

Results flagged for a closer look

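The 3 genes were flagged because their response in Ter94 RNAi differed from that in the proteasome subunit knockdowns by the test of the difference itself. The log2 fold change of Ter94 RNAi against ProsB1 and ProsB5 RNAi was -1.06 for Amyrel, -2.08 for Amy-d and -2.85 for Amy-p. The Amyrel call was the weakest (adjusted p = 0.0378) and was lost in 6 of the 9 fits with 1 library left out. The amylase calls were kept in all 9. Relative to the controls, Amyrel was higher in Ter94 RNAi and in both proteasome knockdowns, while the amylases were lower in Ter94 RNAi and not called in the others. The 31 gut markers summed to 631 to 2317 CPM in Ter94 RNAi and 6645 to 12457 CPM in the proteasome knockdowns. In this comparison 28 of 30 tested were called lower in Ter94 RNAi, where 29.6% of all genes were. Some markers may have passed the count filter through the proteasome knockdowns alone, which favours such calls. The part of gut RNA in these differences was not tested beyond these values.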

How the results depend on the processing

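The rises of Amyrel in the 4 knockdowns and in Amyrel heads and the amylase falls in Ter94 RNAi kept their direction and call under every alternative run. In CG6272 RNAi, Amy-d was no longer called without the controls high in ninaE (-1.19) or the libraries high in Acp36DE (-1.11). Amy-p was not called there with the replicate block (-0.79, adjusted p = 0.0518), with GFP RNAi alone (-0.55), without ninaE-high controls (-0.75), with 18 thoraces in a fit (-0.76) or without Acp36DE-high libraries (-0.65), and ranged from -1.10 to -0.57 with 1 library left out. The replicate block changed no other call of the 3 genes. Without Acp36DE-high libraries ProsB5 RNAi gave -0.059 for Amy-d and -0.053 for Amy-p, Amyrel in ProsB5 against ProsB1 RNAi gave -0.12, and Amyrel in Ter94 RNAi against the proteasome knockdowns gave -0.79. Summing the amylases turned white against GFP RNAi to 0.12. With 1 library left out the ranges were -0.13 to 0.65 (Amy-d) and -0.16 to 0.66 (Amy-p) in ProsB5 RNAi, -0.12 to 0.76 for Amyrel in ProsB5 against ProsB1 RNAi, -1.24 to -0.79 for Amyrel in Ter94 RNAi against the proteasome knockdowns, and -0.22 to 0.10 (Amy-d) and -0.29 to 0.10 (Amy-p) in heads. The ratio of Amyrel to amylase ranged from 7.49 to 8.27 in ProsB1, 7.20 to 7.88 in ProsB5, 8.78 to 9.81 in Ter94 and 5.91 to 6.87 in CG6272 RNAi, with an exact permutation p of 0.0357 without a control and 0.0714, the smallest possible, without a knockdown library. The causes of the other changes were not tested.

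Counts of genes called moved by over 1.5 times as follows. ProsB1 RNAi had 2397, against 1530 without ninaE-high controls, 1552 with 18 thoraces in a fit and 1505 to 2391 with 1 library left out. ProsB5 RNAi had 3492, against 2274, 2249 and, without Acp36DE-high libraries, 1714. CG6272 RNAi had 2463, against 1246 with white RNAi alone, 299 without ninaE-high controls, 4328 with 18 thoraces, 341 without Acp36DE-high libraries and 1220 to 3147 with 1 library left out. White against GFP RNAi had 1451, against 702 with 18 thoraces and 828 to 1292 with 1 left out. ProsB5 against ProsB1 RNAi had 672, against 1023 by DESeq2, 273 with 18 thoraces, 300 without Acp36DE-high libraries and 371 to 613 with 1 left out. Heads had 162, against 441 by DESeq2 and 25 to 207 with 1 left out. Depth limits Amyrel in controls, where single reads set the fold.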

Other observations

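The share of Amy-d in the amylase reads differed between the control lines, which were not called different for either gene. It was 35.9 to 37.8% in white RNAi and 47.5 to 48.3% in GFP RNAi thoraces. ProsB1 RNAi lay at 35.8 to 37.4%, ProsB5 RNAi at 41.6 to 42.9%, CG6272 RNAi at 34.2 to 35.6% and Ter94 RNAi at 50.8 to 60.6%. Amyrel heads had 63.1 to 67.5% and control heads 63.2 to 67.2%. Reads without a unique alignment were counted for neither copy, so the share is a value of the uniquely aligned reads only.

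Heads held amylase RNA with little RNA of the gut markers. Amy-d and Amy-p together had 112 to 155 CPM in Amyrel heads and 104 to 171 CPM in control heads. The 31 gut markers summed to 8.68 to 13.2 CPM in Amyrel heads and 10.9 to 19.6 CPM in control heads. Amylase reads per gut marker read were therefore 10.1 to 17.9 in Amyrel heads and 7.43 to 15.6 in control heads, where thoraces had 0.229 to 0.615. The source of this amylase RNA was not tested.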
